A study of Mus musculus with 12 samples.

Results

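The libraries described here compare wild-type splenic natural killer (NK) cells of mice stimulated with IL-12/18 (WT_Sti, 3 libraries) with wild-type splenic NK cells under control treatment (WT_Ctl, 3 libraries), which makes 6 of the 12 ATAC-seq libraries of the series. They were chosen by the genotype and treatment given in their labels. The design text names the genotypes as Reg-1 fl/fl and Reg-1ΔNK, so the wild-type cells were read as Reg-1 fl/fl cells, in which the gene for the RNase Regnase-1 (Zc3h12a) carries loxP sites but is intact. The remaining groups, knockout NK cells with IL-12/18 (KO_Sti, 3 libraries) and knockout NK cells under control treatment (KO_Ctl, 3 libraries), carry the Reg-1ΔNK deletion. Their peaks were not used to choose regions, but the shortest KO_Sti list set the length to which all lists were trimmed. They served as a check of the regions. The closing section compares the genotypes in several library measures, of which 1 was flagged by its p. The deposited peak lists cover 100000 cells per library, prepared with a commercial ATAC-seq kit. Cytokine dose, treatment time, age and sex of the mice, the Cre driver and whether replicates came from separate animals are not given in the sources used here. Differences between replicates may therefore be technical in part, and p-values measure only the spread between these samples.

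ATAC-seq marks chromatin that a transposase can reach, and such open regions include promoters and distal regulatory elements. IL-12 acts through a receptor coupled to the kinases Jak2 and Tyk2 and the transcription factor Stat4, while IL-18 acts through MyD88 and IRAK kinases to NF-kB and MAP kinases. Together they are known as a strong trigger of interferon-gamma (Ifng) secretion by NK cells. A peak list does not tell whether a region opened in more cells or opened further in each cell, and the cell makeup of a bulk library can move with treatment, so these cannot be told apart here.

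The WT_Sti lists held 56434, 55146 and 63128 distinct intervals on chromosomes 1 to 19, X and Y, and the WT_Ctl lists held 42520, 48324 and 53440. The groups did not overlap, with a mean difference of 10141 intervals and an exact two-sided permutation p of 0.1, the smallest that 3 against 3 libraries allow. Because of this gap every list was trimmed to 35110 intervals, the strongest by −log10 q, which is as many as the shortest of the 12 lists holds. The weakest interval kept had a −log10 q of 16.6, 17.3 and 27.1 in WT_Sti and 5.76, 12.9 and 15.9 in WT_Ctl, so an equal length is not an equal strength. All 10 NK marker promoters examined, among them those of Ncr1, Klrb1c, Eomes, Tbx21 and Prf1, were called in all 6 libraries. Among promoters of other lineages with an entry in the reference, 0 of 5 T cell promoters were called in each WT_Sti library and 0, 1 and 1 (Cd5) in WT_Ctl. For 3 B cell and 4 myeloid promoters the number was 0 or 1 in each of the 6 libraries, and none of the 5 erythroid promoters was called in any of them. Of 4 promoters of markers of other innate lymphoid cells (ILC1 and ILC2/3), 2 were called in each of the 6 libraries, those of Gata3 and Cxcr6.

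Merging the 6 equal-length lists gave 41076 regions called in at least 2 libraries. Of these, 4277 were called in 3 of 3 WT_Sti and 0 of 3 WT_Ctl libraries (gained, 10.4% of regions), and 2910 were called in 0 of 3 WT_Sti and 3 of 3 WT_Ctl libraries (lost, 7.08%). A further 24477 regions (59.6%) were shared by all 6 libraries. Libraries of the same group shared most of their regions, with a mean Jaccard index of 0.902 within WT_Sti and 0.893 within WT_Ctl, against 0.688 between a WT_Sti and a WT_Ctl library. Away from gene ends the index was 0.599 between groups, 0.877 within WT_Sti and 0.858 within WT_Ctl. Within 1 kb of a gene end it was 0.897 between groups, 0.956 within WT_Sti and 0.964 within WT_Ctl.

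Regions that differed lay mostly away from gene ends. Within 1 kb of either end of a protein-coding gene lay 198 gained regions, or 4.63% (95% Wilson interval 4.04 to 5.30%), and 386 lost regions, or 13.3% (12.1 to 14.5%), beside 41.5% of shared regions (40.9 to 42.1%). Over all regions that share was 29.0%. For regions called in any other pattern of libraries it was 12.5% (11.9 to 13.2%), near that of lost regions. Gained regions had a median distance of 19.1 kb to the nearest gene end, lost regions 13.5 kb and shared regions 3.71 kb. Regions of other patterns had a median distance of 13.0 kb and a median width of 759 bp, and 49.5% lay inside a gene away from its ends. Inside a gene but away from its ends lay 50.6% of gained, 49.5% of lost and 33.2% of shared regions. Gained and lost regions were also narrower, with median widths of 800 and 837 bp beside 1589 bp for shared regions, and width and position go together. In each width class the order nonetheless held: among regions of 500 to 1000 bp, 3.85% of gained, 10.9% of lost and 14.5% of shared regions lay near a gene end, and among those of 2000 bp or more the shares were 17.4%, 41.0% and 58.3%. Lost regions had median ranks (1 is the strongest) of 26807, 26723 and 27048.5 in the WT_Ctl libraries. Shared regions had 12467, 12421 and 12402 there. The part of peak strength in these shares was not tested. The shares describe regions, which are not replicates. Per library, 31.1 ± 0.232% of WT_Sti intervals and 32.8 ± 0.0987% of WT_Ctl intervals lay near a gene end (SD, n = 3 each, exact permutation p = 0.1).

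Gained and lost calls had different support in the complete lists. In the full WT_Ctl lists, no peak of any strength overlapped 2591 gained regions (60.6%), while 355 (8.30%) had a weaker peak in all 3 libraries. For lost regions the picture was the other way round, with no peak in any WT_Sti list at 316 regions (10.9%) and a weaker peak in all 3 at 1655 (56.9%). With full lists in place of equal-length ones, 7353 regions were gained and 1039 lost, and with a fixed −log10 q of at least 10 the counts were 6447 and 871. Most lost regions were thus places with a lower-ranked peak in WT_Sti, and the number of lost regions depends on the list length.

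Few promoters were among the gained and lost regions, and 18 of the 46 gained windows held an AP-1 motif. Windows ran from 250 bp before to 50 bp after an annotated start (RefSeq, GRCm38.p6), with 21263 windows of 17492 protein-coding genes. None lay on chromosome 18, so 4128 of the 4277 gained and 2834 of the 2910 lost regions were on chromosomes with windows. Gained regions overlapped 46 windows of 43 genes, and lost regions overlapped 170 windows of 157 genes. AP-1, the dimer of Fos, Jun or Batf family proteins that many stimuli activate, is known to bind TGANTCA, a motif that reads as the same pattern on both strands. This motif occurred in 18 of 46 gained windows, or 39.1% (95% Wilson interval 26.4 to 53.5%), in 4.12% of lost windows (2.01 to 8.25%), in 4.49% of shared windows, in 9.69% of windows with no region and in 6.99% of all windows. The NF-kB pattern GGGNNNNNCC, or GGNNNNNCCC on the other strand, is common in GC-rich sequence and occurred in 45.7% of gained, 64.1% of lost and 57.0% of all windows. The STAT pattern TTCNNNGAA occurred in 13.0% of gained windows and 7.69% of all windows, with an interval of 6.12 to 25.7% around the gained share. The IRF pattern GAAANNGAAA, or TTTCNNTTTC on the other strand, occurred in 4.35% of gained, 5.29% of lost and 3.35% of all windows. Gained windows held a median of 4 CpG dinucleotides, as did windows with no region, while lost windows held 13 and shared windows 22. A match describes the letters in the window and not a bound site, and windows of 1 gene can overlap each other.

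**Figure D1:**
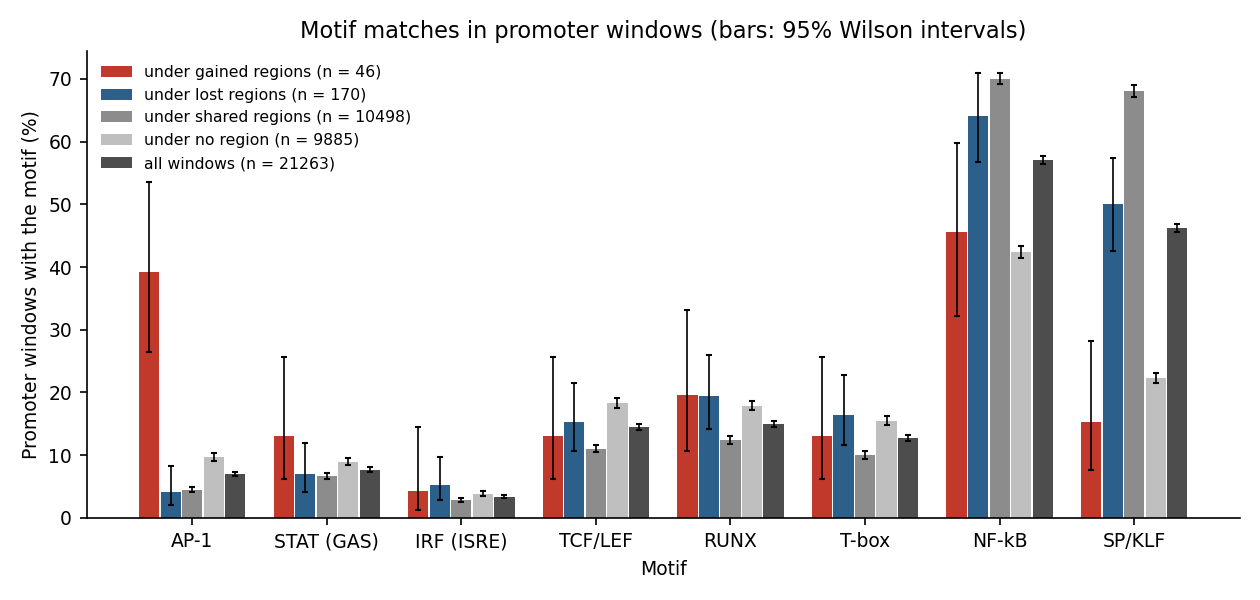
Share of promoter windows (%, vertical axis) that hold each motif (horizontal axis), for windows under gained, lost, shared or no regions and for all windows, with 95% Wilson intervals as error bars. The AP-1 share is 39.1% in the 46 gained windows and 4.12% in the 170 lost windows, while the NF-kB share is 45.7% in gained and 64.1% in lost windows.

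The sequences below show gained promoters of 4 immune genes and lost promoters of 2 NK cell surface genes, with matches to the AP-1, NF-kB, STAT and IRF patterns in capitals; they were picked for their known roles after the calls were seen. Il6 encodes the cytokine IL-6, whose mRNA is a known Regnase-1 target, and its window lies at chr5:30012864-30013163 on the plus strand. Tnfsf13b encodes the B cell survival factor BAFF, at chr8:10006383-10006682 on the plus strand. Mmp10 encodes the matrix protease stromelysin-2, at chr9:7502092-7502391 on the plus strand. Tnip3 encodes an inhibitor of NF-kB signalling, at chr6:65590148-65590447 on the plus strand. Klrb1a encodes the lectin-like receptor NKR-P1A, at chr6:128622885-128623184 on the minus strand. Cd27 encodes a costimulatory TNF receptor that marks less mature mouse NK cells, at chr6:125236978-125237277 on the minus strand. All are printed 5′ to 3′ on the strand of the gene.
Il6: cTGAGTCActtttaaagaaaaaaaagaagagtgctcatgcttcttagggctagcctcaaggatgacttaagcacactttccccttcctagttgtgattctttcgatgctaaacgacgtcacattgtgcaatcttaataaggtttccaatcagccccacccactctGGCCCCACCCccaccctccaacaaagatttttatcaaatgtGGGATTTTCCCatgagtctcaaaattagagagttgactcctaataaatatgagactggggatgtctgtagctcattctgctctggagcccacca
Tnfsf13b: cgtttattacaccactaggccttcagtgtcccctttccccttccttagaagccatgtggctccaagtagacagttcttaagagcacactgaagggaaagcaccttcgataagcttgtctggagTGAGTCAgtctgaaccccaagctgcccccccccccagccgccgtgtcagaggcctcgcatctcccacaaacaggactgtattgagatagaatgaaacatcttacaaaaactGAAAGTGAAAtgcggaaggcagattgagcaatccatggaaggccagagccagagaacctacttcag
Mmp10: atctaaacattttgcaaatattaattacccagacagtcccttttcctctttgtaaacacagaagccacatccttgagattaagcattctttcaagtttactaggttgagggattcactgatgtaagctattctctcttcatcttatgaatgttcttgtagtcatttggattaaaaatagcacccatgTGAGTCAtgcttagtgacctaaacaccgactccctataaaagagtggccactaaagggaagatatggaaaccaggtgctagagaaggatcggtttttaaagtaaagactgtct
Tnip3: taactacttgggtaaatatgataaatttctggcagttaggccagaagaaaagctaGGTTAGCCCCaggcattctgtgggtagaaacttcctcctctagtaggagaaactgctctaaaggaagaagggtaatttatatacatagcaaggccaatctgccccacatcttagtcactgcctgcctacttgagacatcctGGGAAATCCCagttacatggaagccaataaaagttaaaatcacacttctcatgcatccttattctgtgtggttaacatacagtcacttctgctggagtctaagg
Klrb1a: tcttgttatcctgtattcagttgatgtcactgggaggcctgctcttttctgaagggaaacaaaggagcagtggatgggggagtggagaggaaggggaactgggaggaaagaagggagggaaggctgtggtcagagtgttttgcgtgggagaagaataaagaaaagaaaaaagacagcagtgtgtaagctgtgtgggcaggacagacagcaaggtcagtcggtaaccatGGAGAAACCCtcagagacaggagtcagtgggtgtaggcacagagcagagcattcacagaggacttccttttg
Cd27: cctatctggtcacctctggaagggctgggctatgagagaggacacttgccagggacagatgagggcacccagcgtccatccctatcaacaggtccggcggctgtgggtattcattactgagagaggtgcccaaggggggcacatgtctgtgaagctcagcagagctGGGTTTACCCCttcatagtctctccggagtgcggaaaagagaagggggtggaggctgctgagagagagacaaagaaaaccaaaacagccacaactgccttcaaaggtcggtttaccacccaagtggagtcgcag

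The Il6 promoter region ranked 18034, 19927 and 20182 in the WT_Sti lists, where rank 1 is the strongest interval, and in WT_Ctl only a peak at rank 43204 in replicate 3 overlapped it. Il6 is an example of a promoter with both an AP-1 and NF-kB matches. The Mmp10 promoter ranked 28605, 26639 and 30111 in WT_Sti and had no WT_Ctl peak of any strength. The Tnfsf13b promoter ranked 28101, 22146 and 26669 in WT_Sti, with a single weak WT_Ctl peak at rank 53316. The Tnip3 promoter ranked 24100, 29919 and 32352 in WT_Sti, against a single weak WT_Ctl peak at rank 49157. These were regions of middling or low strength in the stimulated lists. The lost Klrb1a promoter ranked 39639, 35378 and 35210 in WT_Sti, just under the length kept, and 15116, 10864 and 12481 in WT_Ctl. The lost Cd27 promoter ranked 40597, 36767 and 35208 in WT_Sti and 29162, 21041 and 20738 in WT_Ctl. Both lost promoters thus kept a weaker peak in all 3 stimulated libraries.

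Ifng, the main cytokine product of IL-12/18-treated NK cells, had regions called at 16, 15 and 16 places within 50 kb in WT_Sti and at 10, 11 and 12 in WT_Ctl. The gene lies at chr10:118441046-118445894 on the plus strand. The region over its body, chr10:118439835-118449252, covered 9281, 9302 and 9418 bp in WT_Sti, against 2358, 3134 and 3430 bp in WT_Ctl. The groups were far apart, and the log2 width difference of 1.63 passed limma's moderated test over all shared regions (adjusted p = 0.00103). Further downstream, 40.0 kb past the gene, the region at chr10:118485911-118488427 covered 2159, 2303 and 2397 bp in WT_Sti and 376, 403 and 510 bp in WT_Ctl. Its log2 difference of 2.39 was among the 10 largest of all shared regions (limma, adjusted p = 0.000222). A region 12.2 kb downstream differed by 0.86 on the log2 scale and a region 26.6 kb upstream by 1.52, both past the limma threshold with adjusted p of 0.00689 and 0.00712. Downstream of the gene 3 regions were gained: at chr10:118451287-118452598, 5.39 kb downstream, at chr10:118461007-118461802, 15.1 kb downstream, and at chr10:118494776-118496340, 48.9 kb downstream. The first ranked 13006, 12249 and 10881 in WT_Sti and had no WT_Ctl peak. Both the second and the third were called in no equal-length WT_Ctl list, and a WT_Ctl peak of any strength appeared only under the third, at rank 43261 in replicate 2.

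Beyond Ifng, gained regions lay near several genes of the cytokine response. Cd274, which encodes the checkpoint ligand PD-L1, had 4, 4 and 4 regions in WT_Sti and 1 in each WT_Ctl library, and 3 of its 4 regions were gained. One of these, at chr19:29384236-29386108 inside the gene, ranked 21076, 22840 and 23547 in WT_Sti and had no WT_Ctl peak. Il10, which encodes an anti-inflammatory cytokine, had 5, 5 and 5 regions in WT_Sti and 2, 3 and 3 in WT_Ctl, with 3 gained. Prdm1, which encodes the terminal differentiation factor Blimp-1, had 13, 13 and 14 regions in WT_Sti and 8, 8 and 8 in WT_Ctl. The 4 gained Prdm1 regions included 1 at chr10:44434374-44435653, ranked 8549, 8459 and 9712 in WT_Sti, with no WT_Ctl peak. Gzmk, which encodes granzyme K, had 2 regions in each WT_Sti library and 0 in each WT_Ctl library, at 1.05 and 2.95 kb past the gene. With only the 17555 strongest intervals of each list, neither Cd274 nor Gzmk kept a net gain.

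Among microRNA genes, Mir155 had the largest called width increase at its hairpin; it was on no list and was chosen after its values were seen. Of 1005 hairpins in the reference table, 137 were overlapped by a region: 1 gained (Mir698), 2 lost (Mir5618 and Mir6987), 122 shared and 12 other. Over all regions 10.4% were gained and 7.08% lost. Of the shared ones, 3 were wider in WT_Sti (Mir155, Mir6392 and Mir449c) and 1 was narrower (Mirlet7i), where 5.02% and 2.42% of all shared regions were so called. Mir155 encodes miR-155, a microRNA induced in activated lymphocytes and known to favour NK cell interferon-gamma production. Its mature sequences (RefSeq, GRCm38.p6) are printed with the seed, bases 2 to 8, in capitals, because the seed pairs with target mRNAs; the hairpin lies at chr16:84714140-84714204 on the plus strand.
mmu-miR-155-5p: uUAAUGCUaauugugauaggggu
mmu-miR-155-3p: cUCCUACCuguuagcauuaac

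The region that holds the Mir155 hairpin, chr16:84711340-84714873, covered 3092, 3292 and 3534 bp in WT_Sti, against 1306, 1248 and 1268 bp in WT_Ctl. This difference of 1.34 ± 0.103 (log2, SE) passed the limma test with an adjusted p of 0.00153. A region 7.16 kb before the hairpin covered 4398, 3329 and 4383 bp in WT_Sti and 987, 1027 and 1144 bp in WT_Ctl, a log2 difference of 1.89 (limma, adjusted p = 0.00105). Both kept the call in all 9 refits tried. Gained regions lay on both sides, at chr16:84680365-84682898 and chr16:84716176-84719884, and neither had a WT_Ctl peak of any strength.

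At the level of genes, 2634 of the 13899 protein-coding genes with a region within 50 kb had at least 1 gained region (19.0%) and 2139 had at least 1 lost region (15.4%), while 548 had both. Long genes hold more regions, and median gene length was 49.4 kb for genes with a gained region, 45.4 kb for genes with a lost region and 19.0 kb for genes with neither. At least 5 gained regions were found at 32 genes and at least 5 lost regions at 1 gene, Eya2.

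The gene with most gained regions was Lpp, which encodes a LIM-domain protein of cell adhesion sites. Lpp had 30, 30 and 31 regions in WT_Sti and 16, 15 and 14 in WT_Ctl, and 15 of its 33 regions were gained, 9 of them without any WT_Ctl peak. Atp8b4, a putative phospholipid flippase gene, had 19, 19 and 18 regions in WT_Sti against 8, 8 and 7 in WT_Ctl. Tnfrsf19, a TNF receptor family gene, had 10, 11 and 11 regions in WT_Sti and 2 in each WT_Ctl library, and none of its 8 gained regions had a WT_Ctl peak. Groups did not overlap at these genes, which were chosen for that difference, so the counts are a description.

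Foxp1, a forkhead factor linked to lymphocyte quiescence, had 29, 25 and 27 regions in WT_Sti and 17, 20 and 18 in WT_Ctl, with 9 gained and 1 lost. Tet2, which encodes a 5-methylcytosine dioxygenase, had 8, 9 and 9 regions in WT_Sti and 3, 2 and 2 in WT_Ctl. Etv6, an ETS-family repressor gene, had 13, 12 and 12 regions in WT_Sti, against 4, 4 and 5 in WT_Ctl. Ahr, which encodes a ligand-activated transcription factor, had 8 regions in each WT_Sti library and 3 in each WT_Ctl library, and so did Stx11. Stx11 encodes syntaxin 11, a SNARE protein that NK cells need to release lytic granules. Sox5, Fars2, Gtdc1, Agpat4, Ripk4, Uqcrfs1 and Pecam1 completed the 15 genes with the largest net gain, with 5 to 7 gained regions each. A net gain of 5 was shared by 13 genes, of which 5 fell within the 15. On the full lists all 15 genes still had more gained than lost regions, with net counts of 3 to 13, and on the 17555 strongest intervals 13 of them did.

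**Figure D2:**
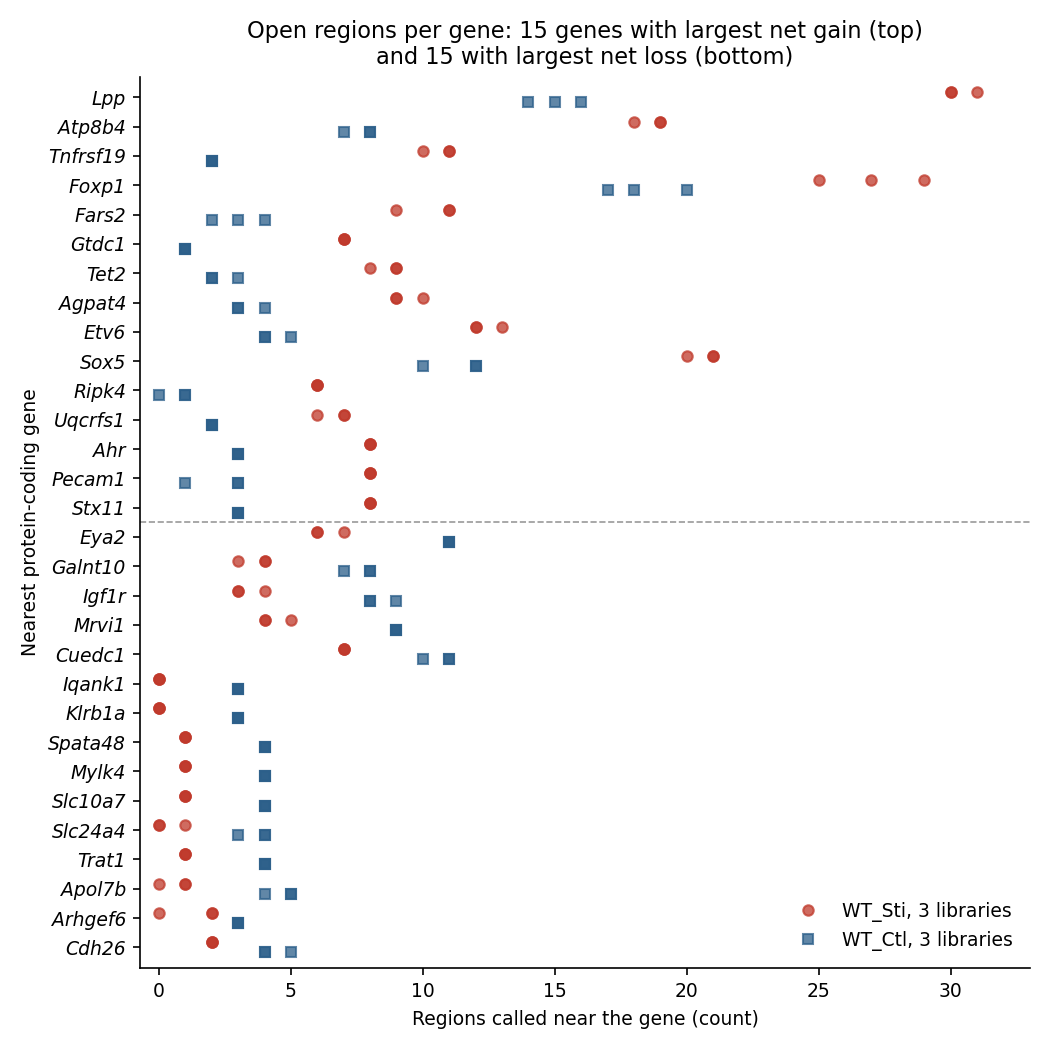
Number of regions called near each gene (horizontal axis, count) in each of the 3 WT_Sti libraries (circles) and 3 WT_Ctl libraries (squares), for the 15 genes with the largest net gain and the 15 with the largest net loss; darker symbols are libraries with equal counts. Lpp has 30 or 31 regions in WT_Sti and 14 to 16 in WT_Ctl, and Eya2 has 6 or 7 in WT_Sti and 11 in each WT_Ctl library.

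At least 3 lost regions were found at 79 genes, against 213 genes with at least 3 gained regions. Eya2, which encodes a transcriptional coactivator with phosphatase activity, had 6, 6 and 7 regions in WT_Sti and 11 in each WT_Ctl library, with 5 lost. Igf1r, the gene of the insulin-like growth factor 1 receptor, had 3, 4 and 3 regions in WT_Sti against 8, 9 and 8 in WT_Ctl. Galnt10, Mrvi1 and Cuedc1 each lost 4 regions. Klrb1a had 0 regions in each WT_Sti library and 3 in each WT_Ctl library. Trat1, which encodes an adaptor of the T cell receptor complex, had 1 region in each WT_Sti library and 4 in each WT_Ctl library. At a net loss of 3 stood 44 genes, of which 10 fell within the 15. Many of these losses were of rank: on the full lists 4 of the 15 genes kept a net loss and 7 had none. Another 4 had a net gain there, namely Eya2, Cuedc1, Iqank1 and Arhgef6. On the 17555 strongest intervals 6 of the 15 kept a net loss, 8 had none and 1, Cuedc1, had a net gain.

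Some gained and lost regions lay in dense stretches. The next region along the chromosome was gained too for 16.4% of gained regions, beside 10.4% gained over all regions. It was lost too for 9.35% of lost regions, near the 7.08% lost over all regions, and it was gained for 8.32% of lost regions. The densest stretch of gained regions spanned 33.7 kb at Tnfrsf19, chr14:60930143-60963853, and held 9, 10 and 10 called regions in WT_Sti and 0 in each WT_Ctl library. Next came Atp8b4 with 9 gained regions within 97.5 kb, called at 11 places in each WT_Sti library and at 2 in each WT_Ctl library. A stretch of 92.5 kb with no protein-coding gene, chr13:30550127-30642630, covered the lncRNA genes Gm35109 and 4930519D14Rik, with 13, 14 and 14 regions called in WT_Sti and 5, 4 and 5 in WT_Ctl. The Ugt1a cluster, whose genes encode detoxifying glucuronosyltransferases and share exons, had 8 regions in each WT_Sti library and 2 in each WT_Ctl library. Around Stx11, 7 regions were called in each WT_Sti library and 1 in each WT_Ctl library. Stretches with most lost regions, 5 each, lay at Spata48, Tcf7, Cuedc1, Eya2 and next to Gpr132. At Tcf7, which encodes the factor TCF-1 of early NK and T cell development, 6, 7 and 6 regions were called in WT_Sti and 12 in each WT_Ctl library. Its lost region at chr11:52267777-52269292 ranked 52902, 49863 and 48479 in WT_Sti and 8019, 11364 and 13351 in WT_Ctl.

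The strongest regions called with one treatment and without any peak under the other were listed by rank. Jak2, the kinase of the IL-12 receptor, carried the best-ranked gained region without any WT_Ctl peak, at chr19:29256048-29257425 inside the gene and 4.25 kb from its start. It ranked 4503, 3845 and 4223 in WT_Sti. Snd1, which encodes a Tudor-domain nuclease, had such a region at chr6:28512827-28514024, ranked 5018, 4696 and 4505 in WT_Sti. Zeb2, which encodes a zinc-finger factor needed for late NK cell maturation, had one 25.6 kb downstream at chr2:44955918-44957955, ranked 5859, 5967 and 4971 in WT_Sti. Another lay 243 kb from the start of Satb1, a chromatin organiser gene, with no protein-coding gene within 50 kb. Lost regions without any WT_Sti peak were weaker. The best-ranked of them, inside the collagen gene Col24a1, ranked 16506, 14065 and 13793 in WT_Ctl, and the one upstream of Coro1a, the gene of the actin-binding coronin 1A, ranked 21907, 15679 and 15258. At gene ends, the best-ranked gained region lay at the 3′ end of Hcfc2, ranked 8476, 8151 and 6629 in WT_Sti, above weaker WT_Ctl peaks at 40764 and 41766 in replicates 2 and 3. Ly6i, a gene of the Ly6 surface protein family, had a gained end region ranked 8834, 11492 and 8386 in WT_Sti and no WT_Ctl peak. Ly6, Klra, Klrb1, Klrc and Ugt1a genes have close copies, and the sources used here do not say how multiply mapped reads were handled, so their regions are uncertain.

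Gene lists by role were compared with all genes, near which 9.69% of regions were gained and 6.93% lost. The lists were drawn up with earlier results of these data known, so the shares are counts and carry no test. Genes of the NF-kB pathway had 19 gained and 4 lost of 103 regions (18.4% and 3.88%). Of 23 such genes with a region, 8 had only gains and none only losses. Among all 13899 genes with a region, 2086 had only gains and 1591 only losses. Nfkb1, which encodes the p105 precursor of p50, had 17, 17 and 18 regions in WT_Sti and 14, 14 and 13 in WT_Ctl. Rel, the c-Rel gene, had 4, 4 and 5 in WT_Sti and 1 in each WT_Ctl library, with 2 gained. Tnfaip3, the gene of the feedback inhibitor A20, had 2 gained and 1 lost region.

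Cytokine genes had 17 gained and 3 lost of 101 regions (16.8% and 2.97%). Tnfsf4, the OX40 ligand gene, had 6, 7 and 7 regions in WT_Sti and 3 in each WT_Ctl library. Il6 had 2, 2 and 1 in WT_Sti and 0 in each WT_Ctl library. Il12b, encoding the p40 subunit of IL-12, had its only region gained. Chemokine genes had 5 gained and 3 lost of 44 regions (11.4% and 6.82%), close to the shares over all genes.

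AP-1 and BATF family genes had 14 gained and 4 lost of 87 regions (16.1% and 4.60%). Bach2, a repressor that competes with AP-1, had 20, 20 and 21 regions in WT_Sti against 18, 17 and 16 in WT_Ctl. Batf, a partner of Jun in activated lymphocytes, had 5 regions in each WT_Sti library and 3 in each WT_Ctl library. Genes of the cytotoxic granule had 11 gained and 4 lost of 62 regions (17.7% and 6.45%), of which 5 gained lay near Stx11 and 2 near Gzmk. Prf1 (perforin) had 1 lost region and Gzmb 1 gained region. On the 17555 strongest intervals that list's balance turned to a net of -3.

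NK and lymphocyte transcription factor genes had 47 gained and 20 lost of 350 regions (13.4% and 5.71%). Besides Prdm1, Ahr and Zeb2, Ikzf1 and Myb had 3 gained regions each. Tcf7 and Zbtb16 were among several listed genes with losses. Zbtb16, the gene of the innate lymphocyte factor PLZF, had 3, 3 and 4 regions in WT_Sti and 8, 8 and 9 in WT_Ctl. All 3 lost Tcf7 regions had a weaker peak in each WT_Sti library, and on the full lists the Tcf7 net was 0. The Zbtb16 net was 0 on the 17555 strongest intervals. RNA decay genes had 7 gained and 2 lost of 48 regions (14.6% and 4.17%). Zc3h12a itself, the Regnase-1 gene, had 8 regions in each WT_Sti library and 7, 7 and 6 in WT_Ctl, with 1 gained. Its paralogue Zc3h12c had 4 regions in each WT_Sti library and 1 in each WT_Ctl library.

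Surface receptor genes were mixed. NK receptor genes had 13 gained and 14 lost of 116 regions (11.2% and 12.1%), and the sign of that balance turned on the full lists, where the net was 14. Klrc1, the gene of the inhibitory receptor NKG2A, had 4 regions in each WT_Sti library and 2 in each WT_Ctl library. Cd226, the DNAM-1 gene, had 2 in each WT_Sti library and 4 in each WT_Ctl library. Checkpoint and costimulation genes had 18 gained and 14 lost of 160 regions (11.3% and 8.75%). Tgfbr2, a TGF-beta receptor gene, had 7, 11 and 9 regions in WT_Sti and 13, 12 and 13 in WT_Ctl, and Cd27 had 0 in each WT_Sti library and 2 in each WT_Ctl library. Homing and integrin genes had 12 gained and 9 lost of 115 regions (10.4% and 7.83%), and Ccr7, a lymph node homing receptor gene, had 5, 4 and 6 in WT_Sti against 7, 8 and 8 in WT_Ctl. The net losses of Tgfbr2 and Ccr7 were not kept on the full lists or on the 17555 strongest intervals.

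For the genes of the receptors' own pathways the shares were near those of all genes. IL-12 pathway genes had 8 gained and 7 lost of 85 regions, and IL-18 pathway genes had 8 gained and 6 lost of 85. Growth and metabolism genes had 28 gained and 16 lost of 240 regions (11.7% and 6.67%), among them Hif1a, the hypoxia factor gene, with 3 regions in each WT_Sti library and 1 in each WT_Ctl library. Interferon-stimulated genes had 6 gained and 0 lost of 43 regions, and 4 of the 6 lay near Nlrc5, an activator of MHC class I genes. The Nlrc5 gains were not kept on the full lists, where the net was 0, or on the 17555 strongest intervals, where it was -1. NK marker genes had 2 gained and 2 lost of 55 regions and ubiquitously expressed genes 3 gained and 0 lost of 42. Markers of other cell types had few regions: 1 gained and 1 lost of 15 for B cells, 2 and 1 of 14 for T cells, 2 and 1 of 10 for myeloid cells, and none of 4 for erythroid cells. Summed over all NK markers, 45 to 48 regions were called per WT_Sti library and 48 to 50 per WT_Ctl library, and over all T cell markers 10 to 12 per WT_Sti library and 9 to 10 per WT_Ctl library. The part of other cells in the differences above was not tested.

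**Figure D3:**
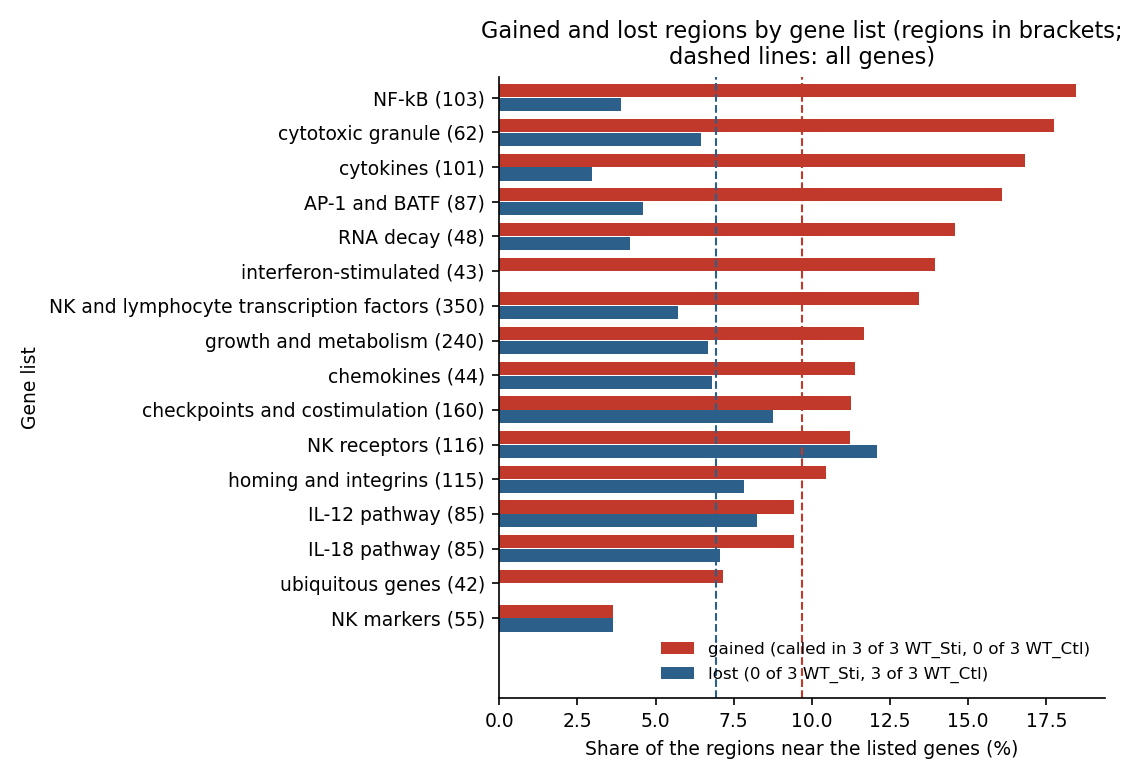
Share of the regions near listed genes that was gained or lost (%, horizontal axis) by gene list (vertical axis, number of regions in brackets). The B cell, T cell, myeloid and erythroid marker lists, which have few regions, are not drawn. Dashed lines mark the shares over all genes, 9.69% gained and 6.93% lost. NF-kB genes stand at 18.4% gained and 3.88% lost, and NK receptor genes at 11.2% gained and 12.1% lost.

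Shared regions could also differ in width, a measure the gained and lost calls do not use. Of 24477 regions called in all 6 libraries, 1228 were wider (5.02%) and 593 narrower (2.42%) in WT_Sti by limma on log2 covered width, at a Benjamini-Hochberg adjusted p under 0.05. The counts depend on single libraries: 748, 715 and 694 regions were wider without WT_Sti replicate 1, 2 or 3 and 813 without WT_Ctl replicate 2. The narrower count was 339 and 312 without WT_Sti replicate 1 or 2, and 310 and 356 without WT_Ctl replicate 2 or 3. Near a gene end lay 16.8% of wider and 21.2% of narrower regions, beside 41.5% of all shared regions. Genes with a wider region numbered 919, and 385 of them also had a gained region, which is 41.9% of the genes with a wider region and 14.6% of the genes with a gained one. Over all genes with a region, 19.0% had a gained one. Of the genes with a narrower region 28% had a gained and 26% a lost region, and of those with a wider region 22.7% had a lost one. Among the 22580 shared regions that were 1 interval in every library, 1053 were wider and 474 narrower.

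The largest width increase was at chr16:3641706-3657189, between genes and 48.4 kb from Olfr161, where the region covered 14356, 14070 and 15484 bp in WT_Sti and 1746, 1484 and 1922 bp in WT_Ctl. It differed by 3.06 on the log2 scale (limma, adjusted p = 0.000167). Inside Katnal1, a katanin-like gene, a region covered 2177, 2428 and 2736 bp in WT_Sti, against 315, 359 and 388 bp in WT_Ctl, a log2 difference of 2.75 (limma, adjusted p = 0.000167). Other large increases lay in Slc1a2, a glutamate transporter gene, with 2.70, and 34.2 kb from Ywhaz, a 14-3-3 protein gene, with 2.33 on the log2 scale, both past the limma threshold.

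Cytokine receptor and effector genes were among the wider ones. At the 5′ end of Il15ra, which encodes the receptor chain that presents IL-15, the region covered 4653, 3307 and 5090 bp in WT_Sti and 1113, 1314 and 1168 bp in WT_Ctl, a log2 difference of 1.80 (limma, adjusted p = 0.00240). Il2ra, the gene of the high-affinity IL-2 receptor chain CD25, had 6 wider regions, and the one at chr2:11644047-11646473 covered 2077, 2273 and 1991 bp in WT_Sti against 653, 845 and 578 bp in WT_Ctl (limma, adjusted p = 0.00395). That region kept its call under every refit tried, while the other 5 each lost it under at least 1 refit. Klrg1, a maturation marker gene, differed by 1.57, Tnfsf10 (TRAIL) by 1.44 and Stat5b, a factor downstream of IL-2 and IL-15 whose region also reaches Stat5a, by 1.24 on the log2 scale, each past the limma threshold. The Batf region inside the gene covered 3894, 3824 and 4086 bp in WT_Sti and 1665, 1729 and 1747 bp in WT_Ctl (log2 1.16, limma, adjusted p = 0.00156). Over all genes with a region, 4.66% of shared regions were wider and 2.3% narrower. By list, 11 wider and 1 narrower of 63 shared cytokine gene regions, 6 and 0 of 29 chemokine gene regions, and 15 and 6 of 92 checkpoint and costimulation gene regions passed the test. For the other lists the wider and narrower counts were 23 and 5 of 211 for transcription factors, 9 and 5 of 143 for growth and metabolism, 6 and 3 of 67 for homing, 5 and 1 of 62 for NF-kB, and 4 and 0 of 38 for the cytotoxic granule. They were 1 and 3 of 59 for NK receptors, 4 and 2 of 50 for the IL-12 pathway, and 1 and 4 of 55 for the IL-18 pathway. The AP-1 and BATF list had 3 and 1 of 56, RNA decay genes 1 and 1 of 32, interferon-stimulated genes 2 and 0 of 34, NK markers 1 and 2 of 36, and ubiquitously expressed genes 3 and 0 of 31. T cell markers had 0 and 3 of 7, and B cell, myeloid and erythroid markers had none of 4, 6 and 2.

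Narrower regions were fewer. The region at an end of Adamts6, an extracellular protease gene, covered 506, 505 and 498 bp in WT_Sti and 3197, 3047 and 3489 bp in WT_Ctl, a log2 difference of -2.72 (limma, adjusted p = 0.000167). At the 3′ end of Ccr2, a monocyte and NK cell chemokine receptor gene, the region covered 1500, 2218 and 1701 bp in WT_Sti and 4455, 6193 and 7674 bp in WT_Ctl (log2 -1.78, limma, adjusted p = 0.00378). Just past Il21r, the IL-21 receptor gene, it covered 923, 1229 and 1572 bp in WT_Sti against 4163, 3902 and 3852 bp in WT_Ctl (log2 -1.75, limma, adjusted p = 0.00300). Irak2, which encodes a kinase of the IL-18 pathway, had a region of 644, 793 and 983 bp in WT_Sti and 2051, 2358 and 2269 bp in WT_Ctl (log2 -1.52, limma, adjusted p = 0.00218). None of these groups overlapped. Smaller decreases that kept their call under every refit tried lay at the 5′ end of Klrb1c, the NK1.1 gene, with -0.62, and 18.4 kb from Tyrobp, the gene of the adaptor DAP12, with -0.88 on the log2 scale.

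**Figure D4:**
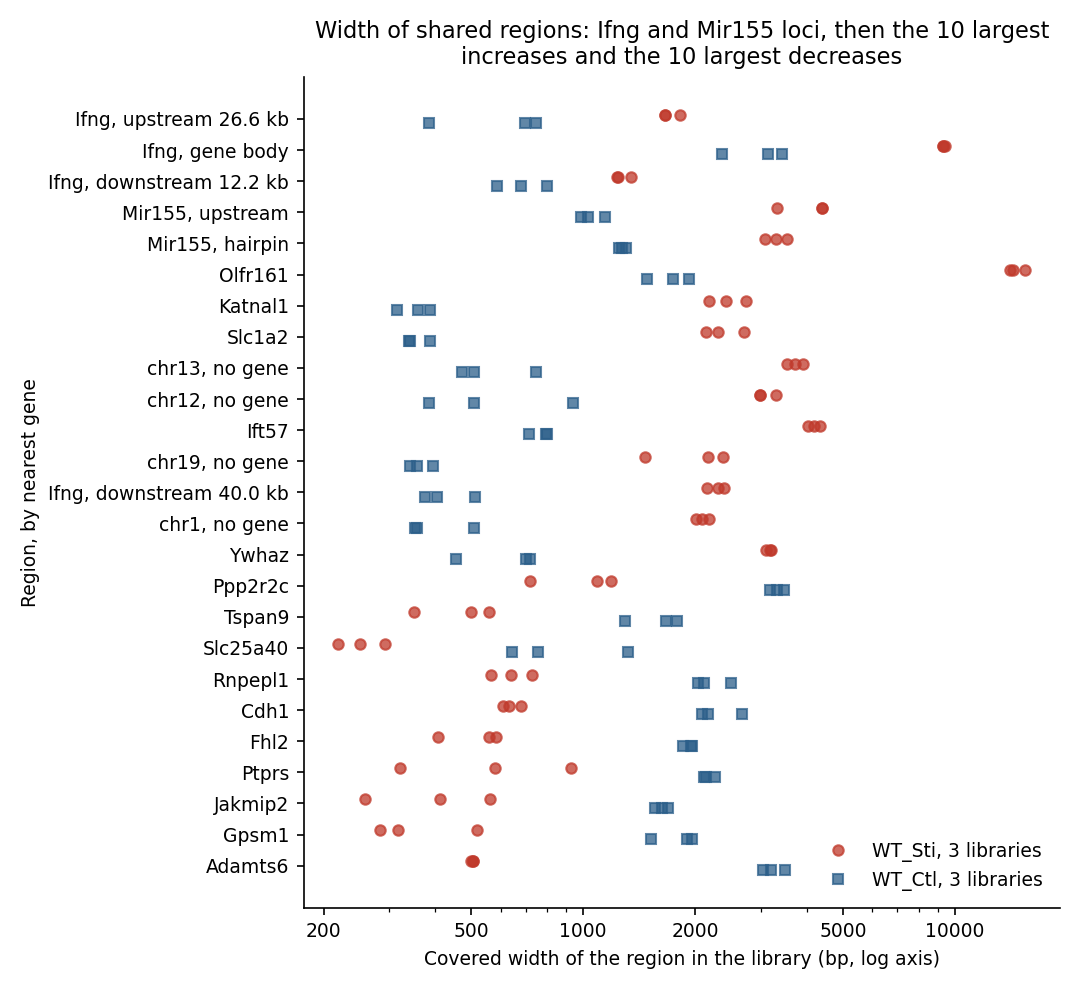
Covered width of single shared regions (bp, horizontal log axis) in each of the 3 WT_Sti libraries (circles) and 3 WT_Ctl libraries (squares), for regions at Ifng and Mir155 and for the 10 largest called increases and 10 largest called decreases, named by nearest gene. The Ifng gene body region spans 9281 to 9418 bp in WT_Sti and 2358 to 3430 bp in WT_Ctl, and the Adamts6 region 498 to 506 bp in WT_Sti and 3047 to 3489 bp in WT_Ctl.

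The treatments overlapped in median interval width and in summit number on equal-length lists. Equal-length lists had a median width of 1058 ± 60.2 bp in WT_Sti and 1020 ± 94.2 bp in WT_Ctl (SD, n = 3 each, exact permutation p = 0.6). On full lists the medians were 688, 719 and 700 bp in WT_Sti and 788, 783 and 776 bp in WT_Ctl, so that the groups did not overlap and the direction was the opposite (exact permutation p = 0.1, n = 3 each). Summits per interval were 1.60 ± 0.0556 in WT_Sti and 1.47 ± 0.108 in WT_Ctl (SD, n = 3 each, exact permutation p = 0.2).

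The knockout libraries gave a check of the wild-type regions in samples whose peaks did not choose them, though KO_Sti replicate 1 set the list length. Regions gained in wild type were called at 64.3, 69.5 and 86.3% in KO_Sti and at 12.8, 10.5 and 13.4% in KO_Ctl, a difference of 61.1 percentage points (exact permutation p = 0.1, n = 3 each, the smallest possible). Regions lost in wild type were called at 22.4, 19.2 and 10.1% in KO_Sti and at 74.9, 79.3 and 76.3% in KO_Ctl, a difference of -59.6 points (exact permutation p = 0.1, n = 3 each). The groups did not overlap in either set. Of the 4277 gained regions, 3547 (82.9%) were called in more KO_Sti than KO_Ctl libraries, and 1644 (38.4%) in all 3 KO_Sti and no KO_Ctl library. Of the 2910 lost regions, 2442 (83.9%) were called in fewer KO_Sti than KO_Ctl libraries. Shared regions were called at 94.4 ± 3.30% in KO_Sti and 98.4 ± 0.354% in KO_Ctl (SD, n = 3 each). The weakest interval kept in KO_Sti replicate 1, the shortest list of the series, had a −log10 q of 1.31; without that library the differences were 65.7 and -62.2 points. On full lists the gained difference was 39.7 points.

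The Ifng gene body region covered 9367, 8368 and 9349 bp in KO_Sti and 3536, 3217 and 3264 bp in KO_Ctl, and the region 40.0 kb downstream covered 2337, 2085 and 2371 bp in KO_Sti and 379, 419 and 506 bp in KO_Ctl. The groups did not overlap at either place. The region 26.6 kb upstream of Ifng was an exception, with 0, 279 and 426 bp in KO_Sti and 222, 0 and 0 bp in KO_Ctl. Groups also overlapped at the Il2ra region that starts at chr2:11644047, with 1156, 1197 and 2088 bp in KO_Sti and 693, 1248 and 527 bp in KO_Ctl. So did they at the Ccr2 region, with 1170, 1102 and 1504 bp in KO_Sti and 2126, 1154 and 2403 bp in KO_Ctl. The wider regions near Olfr161 and inside Katnal1 and the narrower one at Adamts6 kept the groups apart. The Mir155 hairpin region covered 3284, 3085 and 3534 bp in KO_Sti, against 964, 1504 and 751 bp in KO_Ctl. In the stretch next to Tnfrsf19, 7, 6 and 7 regions were called in KO_Sti and 0 in each KO_Ctl library. Around Tcf7, 5, 8 and 7 regions were called in KO_Sti and 12, 11 and 12 in KO_Ctl. The Jak2 region was called in 3 of 3 KO_Sti and 0 of 3 KO_Ctl libraries, and the same held for 9 of the 10 strongest gained regions without a WT_Ctl peak, Jak2 included. The exception, near Zeb2, was called in all 3 KO_Ctl libraries too. Of the 10 strongest lost regions without a WT_Sti peak, all 10 were called in 0 of 3 KO_Sti and 3 of 3 KO_Ctl libraries, against 992 of all 2910 lost regions (34.1%). Of the 10 best-ranked gained regions at gene ends, 5 were called in all 3 KO_Sti and no KO_Ctl library, and of the 10 best-ranked lost ones 2 were called the other way round. At the 30 genes with the largest net gain or loss this held for 60 of 105 gained and 14 of 53 lost regions. Among wider regions called in all 6 knockout lists, 95.2% of 1080 were wider in KO_Sti, with a median log2 difference of 0.55, and among narrower ones 93.7% of 397 were narrower, with a median of -0.41. Of regions with no call in wild type, 49.8% of 19678 were wider in KO_Sti.

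**Figure D5:**
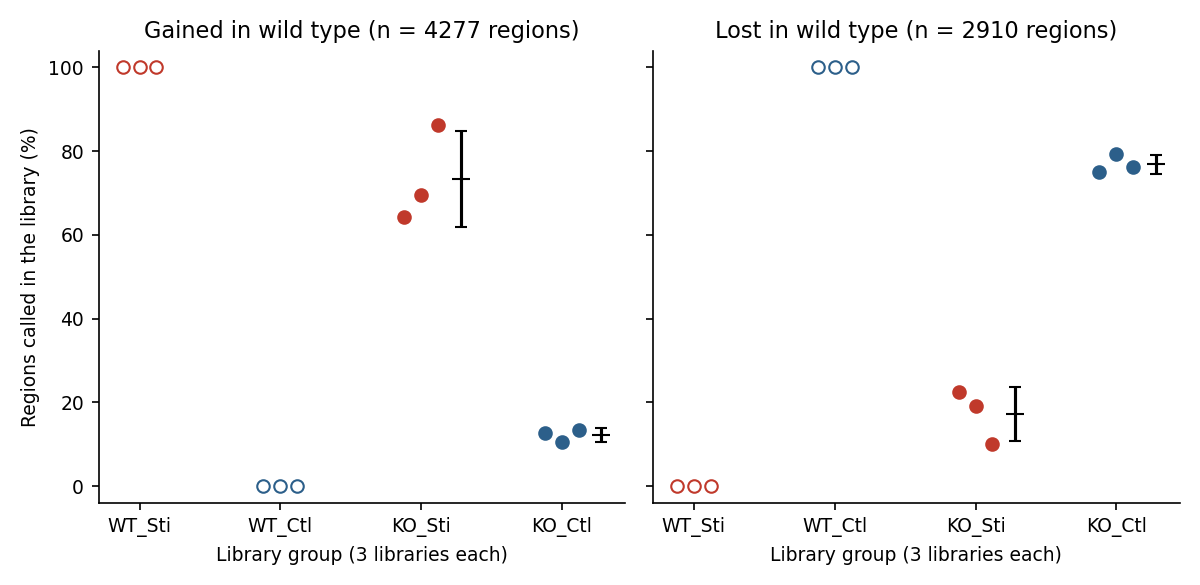
Share of the regions gained (left) or lost (right) in wild type that was called in each library (%, vertical axis), by group of 3 libraries; open circles are the wild-type libraries that chose the regions, filled circles the knockout libraries, and bars the mean and SD. KO_Sti libraries lie at 64.3 to 86.3% for gained and 10.1 to 22.4% for lost regions, and KO_Ctl libraries at 10.5 to 13.4% for gained and 74.9 to 79.3% for lost regions.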

How the data were processed

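ATAC-seq peaks were called per library by the authors, whose narrowPeak lists were deposited for 12 libraries; 6 are compared here. Per the submitters' processing notes, the build was mm10 and the tools included MACS2 2.1.1.20160309 (a peak caller), Bowtie2 2.3.4.1 (an aligner), cutadapt 4.1 (adapter trimming), SAMtools 1.15.1, FastQC 0.11.9 and deepTools 3.4.2. Their order, their settings and whether reads were shifted are not given in the sources used here. The deposited columns hold the authors' fold enrichment, a ratio over background, then −log10 p and −log10 q values, and an integer score that equals 10 times the −log10 q. Within each library the lower folds were whole multiples of a single step. These values ranked intervals within a list only. Peak lists carry no read depth, so precision rests on the number of libraries; intervals on shares cover counting error only.

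Distinct intervals on chromosomes 1 to 19, X and Y were ranked by −log10 q, and the 35110 strongest of each library were merged over the 6 wild-type libraries at 1 bp overlap; a region had to be called in 2 or more of them. Each was assigned to the nearest of 21887 protein-coding genes within 50 kb (RefSeq, GRCm38.p6, the assembly of mm10). Covered widths of regions shared by 6 libraries were tested on the log2 scale, centred on each library's median, with limma 3.58.1 (R 4.3.3) at an adjusted p of 0.05; the deposited lists give no log2 values. On simulated widths with 200 of 24477 regions changed by 1 on the log2 scale, the wild-type test recovered 71.5%, and 0% of changes of 0.5. At a change of 1 it also called 13 unchanged regions. In the data many more regions were called, 1228 wider and 593 narrower, and the adjusted p depends on that number. The simulated shares therefore do not give the recovery in these data. Library values used exact two-sided permutation tests. Python 3.11.15, NumPy 2.4.6, pandas 2.3.3, SciPy 1.17.1 and matplotlib 3.10.9 were used.

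The text names the 15 genes with the largest net gain and loss of regions, the 10 best-ranked gained and lost regions without a peak in the other group or within 1 kb of a gene end, the 10 largest called width changes each way, the 5 densest stretches, and members of 20 gene lists (393 genes) with a call. The regions, lists and rules were chosen with earlier results of these data known. Alternatives were full lists, the 17555 strongest intervals, a −log10 q of at least 10, ranking by fold, calls covering 50% of a region, summit windows, merging over 12 libraries, other flanks, leaving out each library, a replicate block, no centring and a minimum log2 change of 0.2 in limma's treat. Same-numbered libraries were not taken as pairs, and the check given in the closing section does not settle whether they pair.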

Additional observations from a re-analysis of the deposited data

Results flagged for a closer look

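The stimulated-minus-control difference in the number of distinct intervals in the full lists had opposite signs in the genotypes. It was 10141 in wild-type cells and -6925 in Reg-1ΔNK cells, so that the wild-type difference exceeded the knockout one by 17066 intervals. In an exact permutation test that rearranged treatment labels within genotype, over 400 arrangements, p was 0.04. Rearranging genotype labels within treatment gave an exact permutation p of 0.07. The first test takes treatment to have no effect in either genotype, so a difference in wild-type cells alone can lower its p. The second takes genotype to have no effect under either treatment. Neither p therefore measures a difference between the responses alone. The knockout groups overlapped, with 35110, 42543 and 54303 intervals in KO_Sti and 53258, 46971 and 52502 in KO_Ctl. KO_Sti replicate 1, with 35110, is the shortest list of the series, and its part in the difference was not tested. This measure was flagged because the p with treatment labels rearranged was under 0.05. The same exact permutation p was 0.185 for median width, 0.08 for summits per interval and 0.595 for the share near a gene end. It was 0.495 for the background implied by the fold step and 0.385 for peak lines on other chromosomes.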

How the results depend on the processing

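Gained and lost counts moved with the list used. They were 7353 and 1039 on full lists, 2151 and 1730 on the 17555 strongest intervals, and 6447 and 871 at a −log10 q of at least 10. They stayed within 1.5 times of 4277 and 2910 with 50% cover, summit windows and merging over 12 libraries. Leaving out single libraries gave 4472 to 4755 gained and 3218 to 3921 lost regions. Ranking by fold left the counts at exactly 4277 and 2910 and kept the nets of all 201 genes and 20 lists, so it was no separate check. The stimulated-minus-control median width turned from 38 to -80 bp on full lists and ranged from -10.8 (without WT_Ctl replicate 1) to 83.2 bp with single libraries left out. Other library differences kept their direction, with leave-one-out ranges of 7354 to 12814 intervals, 0.0685 to 0.174 summits per interval and -1.72 to -1.52 percentage points near gene ends.

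Width calls numbered 319 narrower without centring, 1127 narrower on full lists, 310 wider and 135 narrower on the 17555 strongest intervals, and 640 wider and 211 narrower with limma's treat. Leaving out single libraries gave 694 to 1070 wider and 310 to 461 narrower regions. With the replicate number as a block, 731 regions were wider and 292 narrower; same-numbered libraries correlated at 0.105, 0.0261 and 0.10, so not every pair passed 0.1 and the numbers were not taken as pairs, though each library correlated best with its own number, a hint from the data and not from the design. With the block the smallest exact permutation p is 0.25. Of 158 named width results none reversed and 80 lost the call under at least 1 alternative; single regions were not refitted on full lists or the 17555 strongest intervals, where regions differ.

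Net counts of gained minus lost regions moved under at least 1 alternative for 197 of 201 genes and for all 20 lists, and reversed for 33 genes and 4 lists. On full lists the net was 2 for Arhgef6, Ccne1, Eya2, Irf2, Lef1 and Socs3, 1 for Cd48, Cuedc1, Iqank1, Srgn and Zc3h12d, -1 for Ccl22 and Itgal, and 14 for the NK receptor list. On the 17555 strongest intervals it was 2 for Tnfsf14, 1 for Ccr7, Cuedc1, Lef1, Socs3 and Tgfbr2, -1 for Cd5, Cxcr3, Gzmb, Il21, Itga1, Klra9, Nlrc5, Runx1, Tnip3 and Usp18, -2 for Ikzf2, -3 for the cytotoxic granule list and -2 for T cell markers. At a −log10 q of at least 10 it was 1 for Arhgef6 and Odc1 and 14 for NK receptors. With 50% cover it was -1 for Csf2, 1 for Tnfsf14, 6 for NK receptors and -1 for T cell markers, and with summit windows -1 for Arid5a and 1 for Socs3. It was -1 for Irf8, Mbd2 and Il2ra without WT_Sti replicate 1, 2 and 3 in that order, and -2 for the IL-12 pathway without WT_Ctl replicate 1. The cause was not tested.

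The AP-1 share of gained promoter windows was 26.1 to 40.4% under the alternatives run. Depth is unknown, replicate sources are not given, and 3 libraries a group limit every test.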
